A study of Mus musculus with 6 samples.

Results

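The 8 genes described here encode the lipases that act on plasma lipoproteins, the proteins that remodel HDL, and a pair of angiopoietin-like proteins that control lipoprotein lipase. The lipases were Lipc, Lpl and Lipg, the HDL genes were Lcat, Pltp and Apom, and the angiopoietin-like genes were Angptl4 and Angptl8. They were picked by symbol in the expression tables of mouse liver and joined to the read counts by Ensembl identifier. All 8 were found among 20673 genes, and all 8 passed the filter on low counts that left 13105 genes for testing.

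Lipoprotein lipases hydrolyse the triglycerides and phospholipids of circulating particles, and lipoprotein lipase itself does so while anchored to the vessel wall. In the liver hepatic lipase is the main enzyme of this family, whereas lipoprotein lipase is made mostly in fat and muscle and is low in adult hepatocytes. HDL, made from apolipoprotein A-I and cell lipids, matures as LCAT esterifies its cholesterol and as PLTP moves phospholipid to it from other particles. The angiopoietin-like proteins ANGPTL4 and ANGPTL8 inhibit lipoprotein lipase, and they respond to fasting, to feeding and to fatty acids.

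The study examined plasma cholesterol and survival in sepsis, and it turned to liver RNA after a short high cholesterol diet to explore the mechanism. Liver RNA was sequenced from C57BL/6J mice fed a regular diet (RD, n = 3) or a high cholesterol diet (HCD, n = 3) for 3 days, with 1 library per mouse. By the methods of the study the HCD held added cholesterol, cocoa butter and sodium cholate, a bile salt, so that the effects of cholesterol, fat and cholate cannot be told apart. The mice were young adults of both sexes in the study as a whole, none carried an engineered allele, and the labels do not give the sex of each liver.

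The RD libraries held 13771630 to 23129576 counts, and the HCD libraries 13935491 to 18545549. At these depths 3 counts correspond to 0.130 to 0.243 CPM, that is counts brought to a common library total with edgeR's TMM factors. Hepatocyte markers such as Alb were abundant in every liver, at a summed 81781 to 112641 CPM with RD and 91054 to 132090.2 CPM with HCD. In the genes that mark sex HCD replicate 1 stood apart, since Xist was at 254 CPM in it and at 0 in the other 5 livers, and Ddx3y, Eif2s3y, Kdm5d and Uty were at 0 in it alone. The diet differences of the 8 genes are therefore given with and without this liver where it moved them. The p-values set the diet difference against the spread between these livers.

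None of the 8 genes changed with diet at an adjusted p under 0.05 in edgeR's quasi-likelihood test, where 3.27% of all tested genes were called. Without adjustment 3 genes reached a p of 0.05 or less in edgeR, Angptl4, Lipc and Lcat, all higher with HCD, beside 20.9% of all tested genes (11.1% higher with HCD). The same 3 genes were the ones whose RD and HCD livers did not overlap, beside 27.6% of all tested genes in either direction and 14% in theirs. With DESeq2 1 of the 8, Angptl4, was called, beside 7.2% of all genes that it adjusted.

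**Figure D1:**
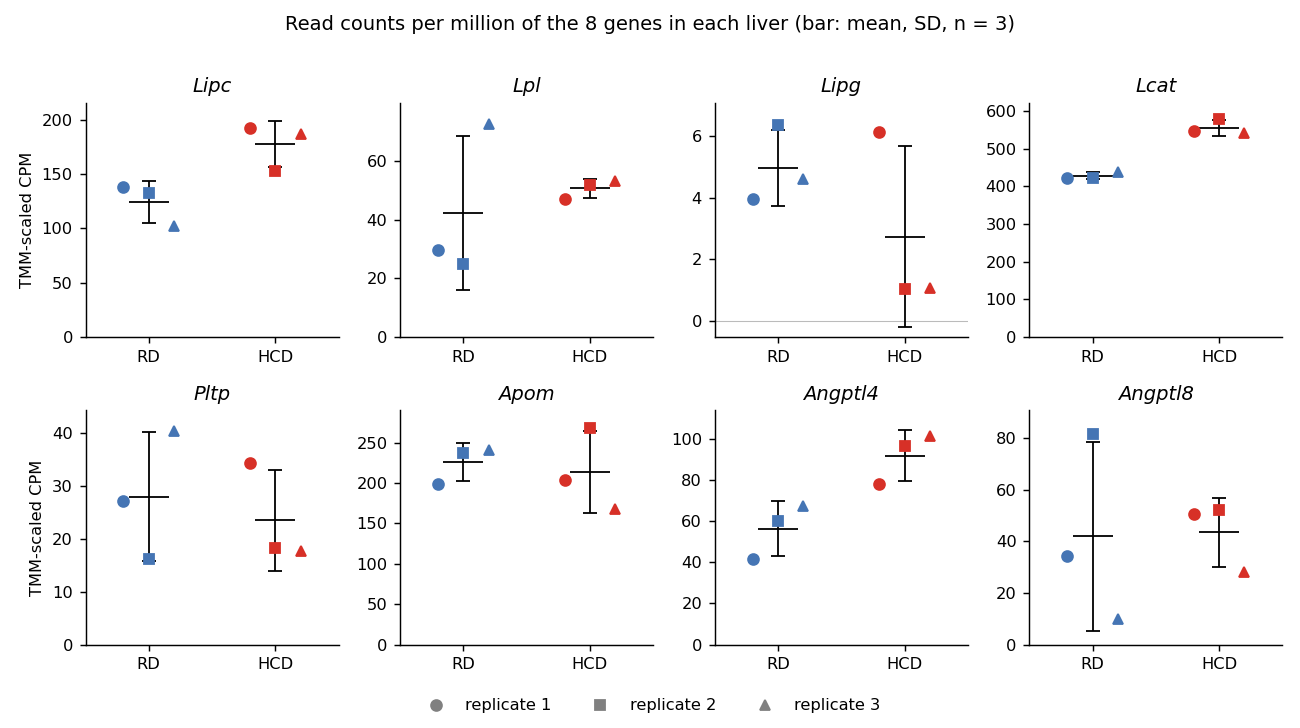
Each panel plots the TMM-scaled CPM of 1 gene (vertical axis) in the 3 RD livers (blue) and the 3 HCD livers (red), with the replicate number as the marker shape and the mean ± SD as bars. The HCD livers lie above every RD liver for Lipc, Lcat and Angptl4 and overlap the RD livers for the other 5 genes, with single RD livers far from the rest for Lpl and Angptl8.

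Among the lipases, Lipc (ENSMUSG00000032207, chromosome 9), which encodes hepatic lipase, was the one that dominated in every liver. Levels of different genes can be compared only per length, in FPKM, the unit that divides fragments by gene length. On this scale Lipc stood at 104 FPKM over the 6 livers, Lpl at 6.56 and Lipg, which encodes endothelial lipase, at 1.50. Of the summed FPKM of the 3 lipases, Lipc made up 94.3%, 93.8% and 85.4% in the RD livers and 93.6%, 93.2% and 94.2% in the HCD livers. The share of Lpl was 12.4% in RD replicate 3 and between 3.63% and 6.47% in the other 5 livers.

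Lipc read 139, 132 and 102 CPM in the RD livers and 192, 153 and 187 CPM in the HCD livers. Every HCD liver was above every RD liver, although the lowest HCD value was close to the highest RD value. The fitted log2 fold change was 0.51 ± 0.16 (SE), a 1.43-fold higher level with a 95% interval of 1.10 to 1.85, and its adjusted p was 0.131 in edgeR. Leaving out 1 liver at a time moved the log2 fold change between 0.39 and 0.60, with adjusted p from 0.111 to 0.324. Without HCD replicate 1 it was 0.45 (edgeR adjusted p = 0.204). DESeq2 gave an adjusted p of 0.0708 over all livers and called Lipc in 1 of 6 fits that left out a liver, the one without HCD replicate 2 (adjusted p = 0.0328).

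Lpl (ENSMUSG00000015568, chromosome 8), which encodes lipoprotein lipase, read 29.6, 25.0 and 72.5 CPM with RD and 47.0, 51.8 and 53.1 CPM with HCD. RD replicate 3 was the highest of all 6 livers and the other RD livers were the lowest, so that the diets overlapped through 1 liver. The coefficient of variation of Lpl was 61.9% with RD, above that of 95.1% of tested genes, and 6.34% with HCD, above that of 8.17%. The log2 fold change was 0.25 ± 0.36 (SE), with a 95% interval from -0.56 to 1.07 and an edgeR adjusted p of 0.728.

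The Lpl difference turned on RD replicate 3. Without it the log2 fold change was 0.89, with an adjusted p of 0.0525 in edgeR and 0.00096 in DESeq2. Without RD replicate 2 it was -0.02, with the trend with gene length removed it was 0.41, and over the 17 alternatives, which do not count DESeq2 with a liver left out, the adjusted p ran from 0.0525 to 0.987. Lpl is also known as a macrophage gene, and in bulk tissue fewer cells of a type and less RNA per cell cannot be told apart. The summed level of 8 Kupffer cell markers was 117, 142 and 194 CPM in the RD livers, again highest in replicate 3, and 365, 322 and 162 CPM in the HCD livers. All 8 of these markers had a higher fitted level with HCD, as had 6643 of all 13105 tested genes, and their median log2 fold change was 0.91. Of the 8, 4 had an unadjusted p of 0.05 or less in edgeR, beside 11.1% of all tested genes that were higher with HCD at this threshold. Cd68 was called by edgeR (log2 fold change 1.24, adjusted p = 0.0277), but not without HCD replicate 1, and DESeq2 called Cd68, Cd5l and Clec4f. Of all genes edgeR called 1.95% higher with HCD, and DESeq2 called 7.2% in either direction. The 8 endothelial markers summed to 128, 115 and 191 CPM with RD and 217, 141 and 147 CPM with HCD, and none was called by edgeR. The part of these cells in the Lpl values was not tested.

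Markers of fat and muscle, where Lpl is highest in the body, were low or not listed. Of 6 adipocyte markers Plin1, Lep and Retn were not listed. The adipocyte marker Adipoq did not exceed 0.144 CPM in any liver, and the adipocyte list as a whole summed to 3.47 to 6.63 CPM with RD and 2.00 to 7.68 CPM with HCD, almost entirely from Cidec and Plin4. Of 6 muscle markers 1 was in the table, Tnni3, at up to 0.349 CPM.

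Lipg (ENSMUSG00000053846, chromosome 18) was the least abundant of the 8 genes and rested on few reads, with 82, 91 and 106 counts in the RD livers and 121, 15 and 13 counts in the HCD livers. These are 3.94, 6.35 and 4.60 CPM with RD and 6.12, 1.03 and 1.05 CPM with HCD. HCD replicate 1 lay within the RD livers, and the other 2 HCD livers lay far below all of them. Over all livers the log2 fold change was -0.82 ± 0.66 (SE), with a 95% interval from -2.31 to 0.68 and an edgeR adjusted p of 0.512. Without HCD replicate 1, the liver with Xist RNA, it was -2.24 and was called by edgeR (adjusted p = 0.0443) and by DESeq2 (adjusted p = 0.000981). With the replicate block it was -1.30. Over the same 17 alternatives the adjusted p of Lipg ran from 0.0443 to 0.768. The part of sex in the Lipg values was not tested, since 1 liver alone carried Xist.

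Of the HDL genes Lcat and Apom were the most abundant of the 8, and Pltp ranked below Lipc, Angptl8 and Angptl4. Lcat (ENSMUSG00000035237, chromosome 8), whose product esterifies the cholesterol of HDL, was at 540 FPKM, and Apom (ENSMUSG00000024391, chromosome 17), whose product carries sphingosine-1-phosphate on HDL, was at 319 FPKM. Pltp (ENSMUSG00000017754), the phospholipid transfer protein, was at 14.8 FPKM. The 6 livers of Lcat (451 to 624 FPKM) lay above those of Apom (249 to 383 FPKM), and these lay above those of Lipc (71.0 to 135 FPKM). Below Lipc the order was Angptl8, Angptl4, Pltp, Lpl and Lipg. The ranges of neighbours overlapped for 4 of the 7 steps in the order, from Lipc down to Lpl, and Lipg lay below all livers of Lpl. Without RD replicate 3 the overlaps were 2 of 7.

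**Figure D2:**
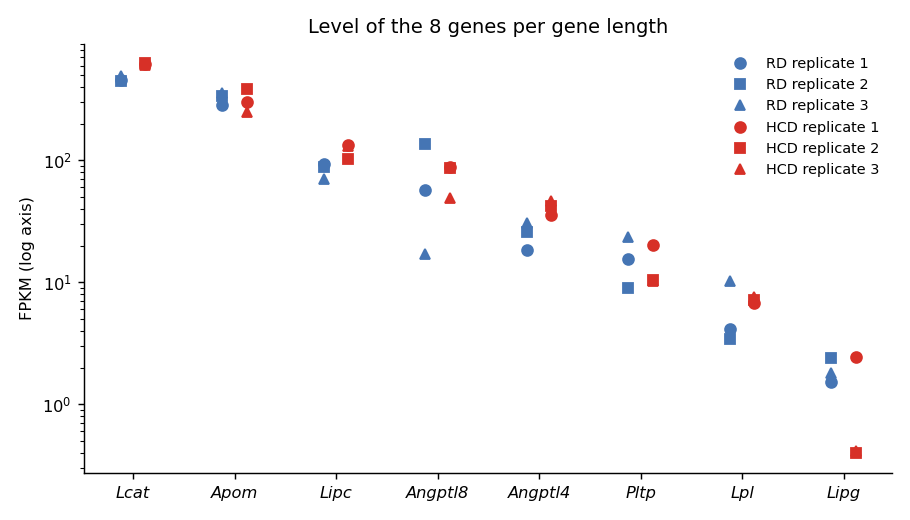
The deposited FPKM of the 8 genes (vertical axis, log scale) are plotted for each of the 6 livers, with RD in blue and HCD in red and the genes ordered by their mean. Mean levels run from 540 FPKM for Lcat to 1.50 FPKM for Lipg, and the points of Angptl8 spread from 17.1 to 135 FPKM.

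Of the 8 genes Lcat had the lowest spread between livers of the same diet. It read 424, 422 and 439 CPM with RD and 547, 579 and 542 CPM with HCD. The groups were well apart relative to their spread, with a coefficient of variation of 2.22% with RD and 3.65% with HCD, where the median tested gene had 15.3% and 20.9%. The log2 fold change was 0.38 ± 0.13 (SE), a 1.30-fold higher level with a 95% interval of 1.05 to 1.60. Its adjusted p was 0.163 in edgeR, whose test draws the spread of each gene toward that of genes of like abundance. The log2 fold change stayed between 0.34 and 0.39 with any 1 liver left out, and was 0.39 without HCD replicate 1. Removing the trend of the libraries with gene length brought it to 0.20 (edgeR adjusted p = 0.487), within adjusted p from 0.106 to 0.549 over the alternatives that kept all livers.

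Apom read 199, 237 and 241 CPM with RD and 204, 268 and 168 CPM with HCD. The highest and the lowest of the 6 livers were both HCD livers, and the diets overlapped throughout. The log2 fold change was -0.08 ± 0.19 (SE), with a 95% interval from -0.52 to 0.35 (edgeR adjusted p = 0.845). The value moved with the processing, to -0.30 with the trend with gene length removed (edgeR adjusted p = 0.45), -0.32 with the replicate block added to this, -0.28 without HCD replicate 2 and 0.06 without HCD replicate 3.

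Pltp read 27.3, 16.1 and 40.5 CPM with RD and 34.4, 18.3 and 17.7 CPM with HCD. Its livers were interleaved, and RD replicate 3 was the highest. Its diet difference was -0.25 ± 0.36 (SE) on the log2 scale, with a 95% interval from -1.07 to 0.57 (edgeR adjusted p = 0.735). It was 0.11 without RD replicate 3 and -0.64 without HCD replicate 1. In the GENCODE M21 annotation Pltp, on chromosome 2, shares 495 exonic bases, 19.3% of its exonic length, with Ctsa on the opposite strand. Ctsa was at 37.3 to 46.1 FPKM, above Pltp, and no source used here says whether the counting used strand, so that reads over the shared bases cannot be assigned with certainty.

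Angptl4 (ENSMUSG00000002289, chromosome 17) showed the largest of the 3 non-overlapping differences. Its product, which inhibits lipoprotein lipase, is induced in the liver by fasting and by fatty acids through PPAR alpha. It read 41.5, 59.7 and 67.4 CPM with RD and 77.8, 96.4 and 101 CPM with HCD. Each HCD liver was above each RD liver, and the exact two-sided permutation test over the 20 assignments of the livers gave p = 0.1, the smallest it can give with 3 livers per diet.

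The fitted log2 fold change of Angptl4 was 0.71 ± 0.20 (SE), a 1.63-fold higher level with a 95% interval of 1.20 to 2.22. The adjusted p was 0.0937 in edgeR and 0.0197 in DESeq2 (log2 fold change 0.69). Over the 17 alternatives the log2 fold change stayed between 0.53 and 0.86 and the adjusted p between 0.0197 and 0.269, with DESeq2 the only one under 0.05. DESeq2 itself called Angptl4 in 2 of 6 fits that left out 1 liver, those without RD replicate 3 (adjusted p = 0.00761) and without HCD replicate 1 (adjusted p = 0.0114). Its adjusted p was 0.191 without RD replicate 1 and 0.13 without HCD replicate 3. The value without HCD replicate 1 was 0.81 in edgeR (adjusted p = 0.0814).

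Angptl8 (ENSMUSG00000047822, chromosome 9), which is induced in the liver by feeding and insulin, had the widest range over the 6 livers. It read 34.1, 81.7 and 9.90 CPM with RD and 50.4, 52.1 and 28.1 CPM with HCD. The RD livers alone spanned the whole range, in which the highest value was 8.25 times the lowest. The coefficient of variation with RD was 87.2%, above that of 98.7% of tested genes, and with HCD it was 30.7%, above that of 68.2%. Lipg was the more variable with HCD, at 107.1% (98.4% of tested genes). The fitted log2 fold change of Angptl8 was 0.06 ± 0.61 (SE), with a 95% interval from -1.32 to 1.45 (edgeR adjusted p = 0.964). An HCD level from 0.401 to 2.73 times the RD level thus lay within the interval. The log2 fold change ran from -0.41 without RD replicate 3 to 0.98 without RD replicate 2.

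Genes of feeding and fasting, chosen after their values were seen, did not place RD replicate 3, the liver lowest in Angptl8, on 1 side. Among the RD livers it was the highest in Igfbp1 (11.2, 62.4 and 156 CPM) and Pck1 (503, 1621 and 3641 CPM), which are induced in fasting, and the lowest in Fasn (535, 677 and 475 CPM), the fatty acid synthase. It was also the highest in 3 lipogenic genes induced by feeding, Acly (178, 218 and 386 CPM), Acacb (71.2, 88.5 and 110.2 CPM) and Srebf1 (231, 179 and 269 CPM). No source used here says when the mice last ate, and its part in the Angptl8 values was not tested.

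**Figure D3:**
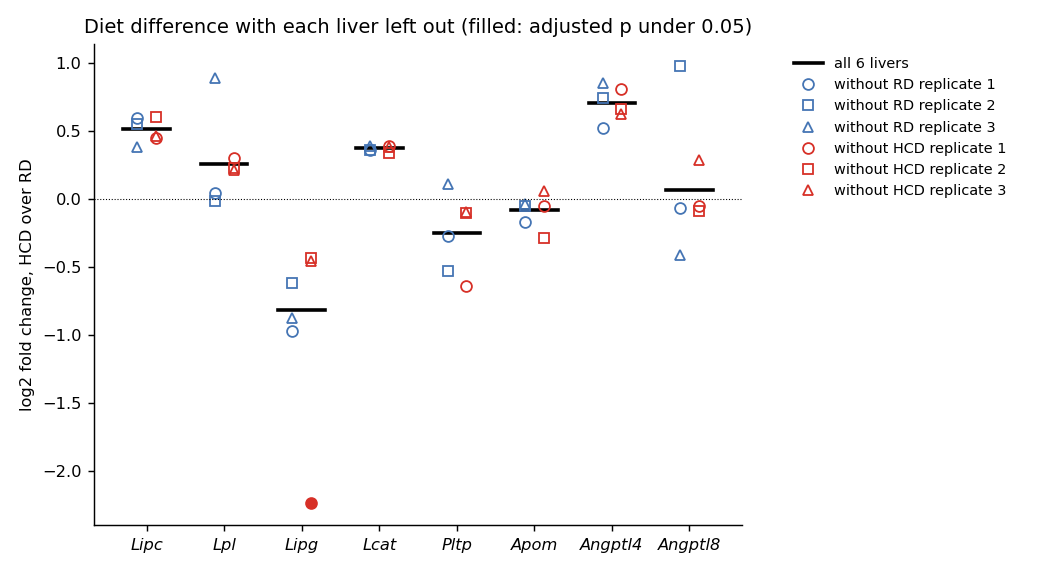
For each of the 8 genes the log2 fold change of HCD over RD (vertical axis) is shown for all 6 livers (black bar) and with each liver left out in turn (symbols, RD livers blue and HCD livers red), and a filled symbol marks an edgeR adjusted p under 0.05. Lcat stays within 0.34 to 0.39, Lpl runs from -0.02 to 0.89 and Angptl8 from -0.41 to 0.98, and the 1 filled symbol is Lipg without HCD replicate 1 at -2.24.

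RefSeq promoter sequences on GRCm38.p6 were at hand for 5 of the 8 genes, Lcat, Pltp, Lipc, Apom and Angptl8, and for Lipc the table held 2 starts. The 250 bases before the start are printed 5′ to 3′ on the strand of the gene for 3 of them. They set Lcat, the gene with the narrowest range over the 6 livers, beside Angptl8, the one with the widest, and Apom, another HDL gene. Capitals mark the nuclear receptor hexamer GGGTCA and the CCAAT box, which is written ATTGG where it lies on the other strand. Lcat lies on the minus strand (chr8:105943403-105943652), Apom on the minus strand (chr17:35131802-35132051) and Angptl8 on the plus strand (chr9:21835260-21835509).
Lcat: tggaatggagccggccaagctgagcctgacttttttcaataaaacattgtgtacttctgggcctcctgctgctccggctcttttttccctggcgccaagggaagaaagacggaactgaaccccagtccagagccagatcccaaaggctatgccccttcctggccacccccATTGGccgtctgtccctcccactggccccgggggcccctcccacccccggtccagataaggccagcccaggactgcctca
Apom: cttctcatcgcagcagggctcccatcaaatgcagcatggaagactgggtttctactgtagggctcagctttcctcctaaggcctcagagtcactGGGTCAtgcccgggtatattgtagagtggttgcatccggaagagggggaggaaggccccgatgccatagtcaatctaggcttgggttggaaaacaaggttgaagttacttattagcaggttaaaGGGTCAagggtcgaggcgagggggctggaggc
Angptl8: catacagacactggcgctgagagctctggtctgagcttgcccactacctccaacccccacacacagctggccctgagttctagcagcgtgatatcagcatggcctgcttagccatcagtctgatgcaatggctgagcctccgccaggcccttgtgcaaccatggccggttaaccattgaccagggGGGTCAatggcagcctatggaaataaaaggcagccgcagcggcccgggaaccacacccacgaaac

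The Lcat window held 1 CCAAT box, 80 to 76 bases before the start, and no hexamer. The Apom window held GGGTCA at 156 to 151 and again at 32 to 27 bases before the start, and that of Angptl8 held it at 65 to 60 bases. On either strand GGGTCA occurs in 11.6% and CCAAT in 33.8% of 32851 promoter windows of this length. None of the 5 windows held the related hexamer AGGTCA (14.0% of all windows), its DR1 and DR4 direct repeats, the sterol response element TCACNCCAC (1.05%) or TATAAA (12.4%). A match of letters is no evidence that a factor binds there.

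Of the genes that activate, inhibit or mature lipoprotein lipase, 3 of 14 were called, 2 higher and 1 lower with HCD, where 1.95% of all tested genes were called higher and 1.32% lower. The median log2 fold change of the 14 was 0.37, beside 0.01 over all tested genes. Apoc1, an inhibitor of the lipase, rose from 1499.8, 1463 and 1608 CPM to 4042, 2777 and 3902 CPM (log2 fold change 1.23 ± 0.20 SE, edgeR adjusted p = 0.0215). Apoe, the ligand by which the liver takes up remnants, rose by a log2 fold change of 1.01 ± 0.20 (SE, edgeR adjusted p = 0.0373). Sel1l, part of the endoplasmic reticulum machinery that lets lipoprotein lipase leave the cell, decreased by 1.00 ± 0.17 on the log2 scale (SE, edgeR adjusted p = 0.0258). It read 260, 289 and 208 CPM with RD and 120, 146 and 114 CPM with HCD, with no overlap. With any 1 liver left out, 0 to 3 of the 14 were called, and 3 without HCD replicate 1.

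Other direct partners of the lipase did not pass the test in edgeR, and of those named here DESeq2 called Apoa5. Apoa5, an activator, was at 707, 834 and 809 CPM with RD and 1274, 1177 and 1285 CPM with HCD, without overlap (log2 fold change 0.67, adjusted p = 0.0552 in edgeR and 0.000536 in DESeq2). Apoc3, an inhibitor, had a log2 fold change of 0.57 ± 0.23 (SE, edgeR adjusted p = 0.207). Gpihbp1, which holds the lipase on capillaries, had 0.67 ± 0.34 (SE, edgeR adjusted p = 0.301), and Lmf1, which helps the lipase to fold, had 0.27 ± 0.19 (SE, edgeR adjusted p = 0.437). Apoc2, the cofactor of the lipase, was listed at only 0.324 to 1.40 CPM. In GENCODE M21 79.5% of its exonic bases are shared with the gene model Gm44805 on the same strand, so that its level is uncertain. Apoa5 shares 20.8% of its exonic bases with an antisense gene model and carries the same uncertainty about strand as Pltp.

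**Figure D4:**
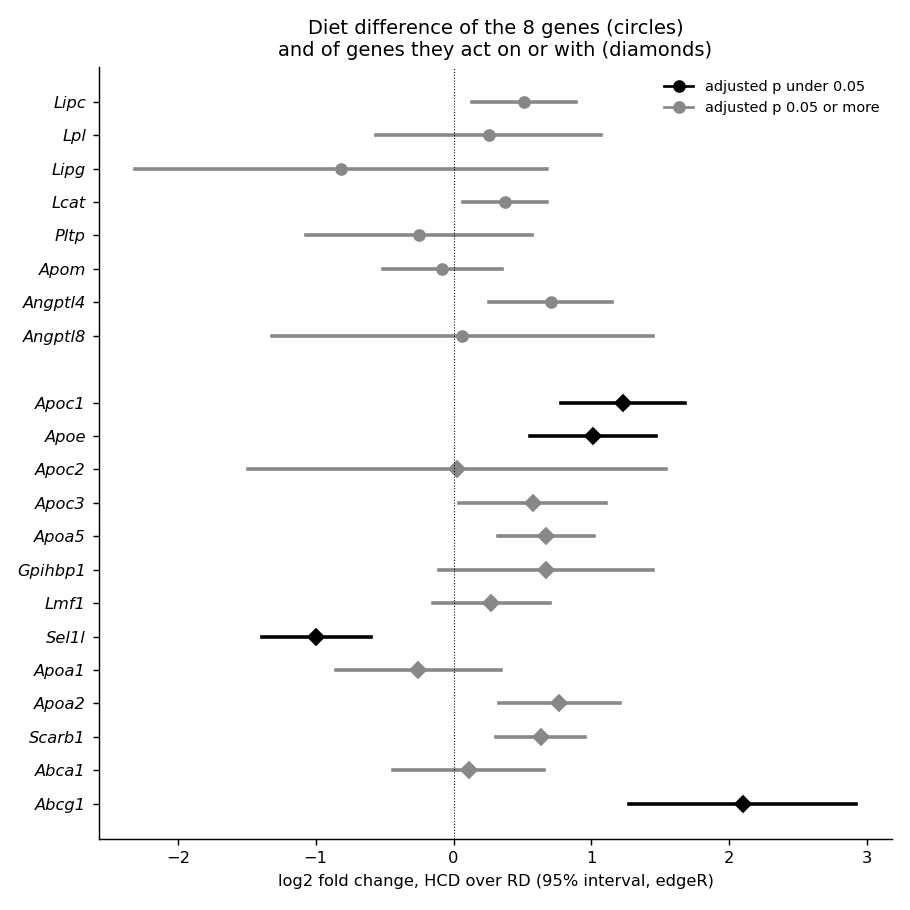
The log2 fold change of HCD over RD with its 95% interval from edgeR (horizontal axis) is shown for the 8 genes (circles) and for 13 genes that act on or with them (diamonds), in black where the adjusted p is under 0.05. All 8 circles are grey, with the intervals of Lipc, Lcat and Angptl4 above 0, and the black diamonds are Apoc1, Apoe and Abcg1 above 0 and Sel1l below.

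Of 17 HDL proteins, receptors and cholesterol transporters, 3 were called by edgeR and 6 by DESeq2, all higher with HCD, where edgeR called 1.95% of all tested genes higher and DESeq2 called 7.2% in either direction. The median log2 fold change of the 17 was 0.35. Besides Apoc1 and Apoe edgeR called Abcg1, which exports cholesterol to HDL, at 3.46, 2.93 and 5.99 CPM with RD and 12.3, 25.9 and 15.5 CPM with HCD (log2 fold change 2.10 ± 0.36 SE, edgeR adjusted p = 0.0258). Abcg1 is also known as a macrophage gene, and of the 8 Kupffer cell markers given above 1 was called higher with HCD by edgeR and 3 by DESeq2, while 7 overlapped between the diets. The part of these cells in the Abcg1 value was not tested. Abca1, which loads apolipoprotein A-I with cholesterol, had a log2 fold change of 0.11 ± 0.24 (SE, edgeR adjusted p = 0.831). Apoa1, the main protein of HDL and the activator of LCAT, had one of -0.25 ± 0.26 (SE, edgeR adjusted p = 0.618). Scarb1, the HDL receptor, was at 255, 219 and 218 CPM with RD and 367, 374 and 333 CPM with HCD (log2 fold change 0.63, adjusted p = 0.0514 in edgeR and 0.0025 in DESeq2). Apoa2, the second protein of HDL, had a log2 fold change of 0.77 ± 0.19 (SE), with an adjusted p of 0.0701 in edgeR and 0.000305 in DESeq2. Neither Scarb1 nor Apoa2 overlapped between the diets. With 1 liver left out 0 to 3 genes of this list were called by edgeR, and Apoc1, Apoe and Abcg1 in 2 of 6 fits each.

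Of the other angiopoietin-like genes 3 of 5 were tested. None was called by edgeR or by DESeq2, beside 3.27% and 7.2% of all genes. In edgeR 2 reached an unadjusted p of 0.05 or less, higher with HCD, as did 11.1% of all tested genes. The lowest p was that of Angptl6, at 7.64, 12.1 and 13.9 CPM with RD and 22.3, 15.2 and 18.6 CPM with HCD (log2 fold change 0.75, edgeR adjusted p = 0.142). Among the other lipases 9 of 14 were tested and 1 was called by edgeR, higher with HCD, where 1.95% of all tested genes were. This was Ces1d, a carboxylesterase that hydrolyses stored triglyceride in hepatocytes, at 596, 649 and 473 CPM with RD and 1381, 1259 and 854 CPM with HCD (log2 fold change 1.02 ± 0.22 SE, edgeR adjusted p = 0.0473). Its call was kept in 1 of the 6 fits that left out a liver, and was lost without HCD replicate 1 (log2 fold change 0.88, edgeR adjusted p = 0.0738).

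Lists of the targets of the factors known to act on these genes gave a background for them, and their counts stand beside the 1.95% of all tested genes that edgeR called higher and the 1.32% it called lower. Lpl and Pltp are known targets of the oxysterol receptor LXR. Of 11 other LXR targets 4 rose with HCD and none fell, with a median log2 fold change of 0.86. They were the sterol transporters Abcg5 (2.74, edgeR adjusted p = 0.0104), Abcg8 (2.64, adjusted p = 0.00407) and Abcg1, and Srebf1 (2.14, adjusted p = 0.00407), the regulator of fatty acid synthesis. Abcg8 was at 61.4, 60.6 and 113 CPM with RD and 465, 521 and 480 CPM with HCD. With 1 liver left out 2 to 4 of the 11 were called, Abcg8 and Srebf1 in 6 of 6 fits, Abcg5 in 5 and Abcg1 in 2. Beside these stand the values of 0.25 for Lpl and -0.25 for Pltp, which did not pass the test.

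Angptl4 is a known PPAR alpha target, and 5 of 16 other targets of this fatty acid receptor rose with HCD (1.95% of all tested genes did) and none fell, with a median log2 fold change of 0.62. These were the fatty acid hydroxylases Cyp4a10 (2.96, edgeR adjusted p = 0.0343) and Cyp4a14 (5.26, adjusted p = 0.0474), the thioesterases Acot1 (2.30, adjusted p = 0.0184) and Acot2 (2.72, adjusted p = 0.0354), and the peroxisomal enzyme Ehhadh (1.79, adjusted p = 0.0184). Cyp4a14 read 5.82, 17.5 and 40.6 CPM with RD and 2054, 202 and 201 CPM with HCD, the highest by far in HCD replicate 1, the liver with Xist RNA. Without that liver the log2 fold change was 3.24 for Cyp4a14 (edgeR adjusted p = 0.0427) and 1.91 for Cyp4a10 (edgeR adjusted p = 0.00828), and Acot2 was no longer called (2.06, edgeR adjusted p = 0.0659). Of the 16 genes 4 were then called, and with any 1 liver left out 0 to 4. Angptl4 itself was lowest of the HCD livers in replicate 1.

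Angptl8 is known as an insulin-responsive gene. Of 16 tested genes of insulin and feeding edgeR called 1 higher, Srebf1, and 1 lower, beside 1.95% and 1.32% of all tested genes. The latter was Acacb, an acetyl-CoA carboxylase, which decreased by 1.81 ± 0.19 on the log2 scale (SE, edgeR adjusted p = 0.00523). DESeq2 called 1 higher and 2 lower, Acacb and Acly, beside 7.2% of all genes in either direction. For Acly the log2 fold change was -1.14, with an adjusted p of 0.0676 in edgeR and 0.000184 in DESeq2. The median log2 fold change of the 16 was -0.17.

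Among 7 tested targets of the bile acid receptor FXR, 2 rose and 2 fell, again beside 1.95% and 1.32%. Nr0b2, which encodes the repressor SHP, rose (log2 fold change 1.34, edgeR adjusted p = 0.0303), as did the bile acid exporter subunit Slc51b (adjusted p = 0.0258 in edgeR), which was at 0 to 0.174 CPM with RD and 1.62 to 3.03 CPM with HCD. Cyp7a1 and Cyp8b1, enzymes of bile acid synthesis, had log2 fold changes of -1.75 (edgeR adjusted p = 0.0453) and -4.01 (edgeR adjusted p = 0.00226). With 1 liver left out at a time Cyp8b1 was called in 6 of 6 fits, Cyp7a1 in 2 and Nr0b2 and Slc51b in 1 each. Without HCD replicate 1 the adjusted p in edgeR was 0.0502 for Nr0b2 and 0.0565 for Slc51b.

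All 10 tested targets of SREBP2, the factor that drives cholesterol synthesis and uptake, were called lower with HCD in edgeR, where 1.32% of all tested genes were, and none overlapped between the diets. With 1 liver left out 5 to 9 of them were called, and 9 without HCD replicate 1. Fdps was at only 3 to 4 counts in each HCD library. The decreases were 1.02 for Srebf2, 1.09 for Hmgcs1, 1.20 for Insig1, 1.74 for Stard4, 3.69 for Idi1 and 4.33 for Sqle on the log2 scale. Sqle, Idi1 and Stard4 were called in 6 of 6 fits that left out a liver, Fdps in 3, Hmgcs1 and Srebf2 in 1 each and Insig1 in 0.

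Over the 9 lists 28 genes were called, 14 higher and 14 lower. The number fell to 9 without RD replicate 1 and to 10 without RD replicate 2, while all tested genes called went from 428 to 36 and 51. With the replicate number as a block 16 were called.

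The genes whose profile over the 6 livers was nearest were taken for the 2 members with the lowest p, among 9116 genes that averaged 5 CPM or more. The measure was the root mean square difference of mean-centred log2 CPM. For Angptl4 these were Ttl (0.0939), a tubulin-modifying enzyme, Trf (0.101), which encodes the iron carrier transferrin, and Cadm1 (0.122), a cell adhesion protein. Of these Cadm1 was called (log2 fold change 0.81, edgeR adjusted p = 0.0304). For Lipc they were Rpl23a (0.052), a ribosomal protein gene, Rpl14-ps1 (0.0535), a ribosomal pseudogene whose reads may come from its parent gene, and Klhl5 (0.0744). A small distance says only that the 6 values run alike.

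The neighbours of 2 further genes are given, chosen after their values were seen. Nearest to Lpl was Mpeg1 (0.109), a macrophage gene, whose log2 deviations from its own mean were -0.43, -0.96 and 0.69 in the RD livers and 0.26, 0.19 and 0.26 in the HCD livers. The deviations of Lpl were -0.56, -0.79 and 0.72 with RD and 0.10, 0.24 and 0.28 with HCD. The next nearest to Lpl were Tcp11l2 (0.152) and Cpeb2 (0.164). A like profile is what the measure selects, and it is no further finding. Nearest to Lipg were Zfp143 (0.411), Socs3 (0.426) and the clock gene Nr1d1 (0.430), all with the 2 HCD livers other than replicate 1 as the lowest, and none was called by edgeR (adjusted p = 0.51, 0.125 and 0.132).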

How the data were processed

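Liver RNA of 3 RD and 3 HCD mice was sequenced by Novogene. The authors deposited raw read counts per gene, and FPKM, whose total is not stated. Notes of the submitters name STAR, HTSeq, DESeq2, edgeR and GRCm39, without roles or versions. The log2 fold changes and p-values that the authors deposited hold their own comparison and were not used. Groups came from the sample titles. No source used here gives the strand setting.

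Counts were tested with edgeR 4.0.16 in R 4.3.3 (filterByExpr, TMM, quasi-likelihood, two-sided, Benjamini-Hochberg over 13105 genes). SE is the log2 fold change over the root of F. Alternatives were DESeq2 1.42.0, RLE, upper-quartile or no factors, other filters, limma 3.58.1 on log2(FPKM + 1) or log2(FPKM + 0.1), a loess trend in relative gene length, the replicate block, stricter and looser thresholds, and each liver left out, in DESeq2 chosen after seeing the data. Scripts were tested on simulated data. Overlaps came from GENCODE M21 (GRCm38) and promoters from RefSeq (GRCm38.p6).

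The 8 genes and all lists were chosen with earlier results of these data known. Some listed genes are not reported here. Named were the 8 genes, their direct partners, each called list gene (or that with the lowest p), and the 3 nearest profiles of the 2 genes with the lowest p. Figures were drawn with matplotlib 3.10.9.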

Additional observations from a re-analysis of the deposited data

How the results depend on the processing

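Of all tested genes 428 were called, against 995 with DESeq2, 649 without a filter, 259 with the length trend removed, 93 with the length trend removed and the replicate block, 136 with the replicate block, 2739 at an unadjusted p of 0.05 or less, 40 at an adjusted p under 0.01 and 36 to 335 with 1 liver left out. Of the 8 genes 0 were called, against 1 with DESeq2, 3 at an unadjusted p of 0.05 or less, 0 to 1 in edgeR with 1 liver left out and 0 to 2 in DESeq2 with 1 liver left out. Of the listed pathway genes 28 were called, against 12 with the length trend removed and the replicate block, 16 with the replicate block, 43 at an unadjusted p of 0.05 or less, 9 at an adjusted p under 0.01 and 9 to 23 with 1 liver left out. Steps in the order of levels with overlapping ranges were 4, and 2 to 4 with 1 liver left out. Replicate numbers did not pair the livers, since the deviations of same-numbered livers correlated at -0.084, 0.12 and -0.030 and 2 of 6 livers were nearest to their own number. With the replicate block none of the 8 genes was called in edgeR. With 1 liver left out the log2 fold change ran from -0.64 to 0.11 for Pltp (sign turned without RD replicate 3), from -0.017 to 0.89 for Lpl (RD replicate 2), from -0.28 to 0.057 for Apom (HCD replicate 3) and from -0.41 to 0.98 for Angptl8, which was -0.20 with the length trend removed and, of the fits lacking 1 liver, -0.068 (RD replicate 1), -0.052 (HCD replicate 1) and -0.089 (HCD replicate 2). The causes were not tested. No setting turned the sign of Lcat, Lipc, Lipg or Angptl4. Lipg had the fewest reads of the 8 genes, at 13 to 121 counts per library.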
